A study of Mus musculus with 15 samples.

Results

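The miRNAs examined here are those of cardiac and skeletal muscle, of the mir-1, mir-133, mir-206, mir-208 and mir-499 families. Members were chosen by name, as all rows of the count table, of either arm, that start with mir-1a-, mir-133a-, mir-133b-, mir-206-, mir-208a-, mir-208b- or mir-499-. The rule found 14 of 1836 rows, the 5p and 3p arms of 7 precursors (mir-1a-1, mir-1a-2, mir-133a-1, mir-133a-2, mir-208a, mir-208b and mir-499), and it matched no name of mir-133b or mir-206. The libraries come from the left ventricles (LV) of 15 mice, 5 per group, with and without the enzyme AGAT. AGAT (L-arginine:glycine amidinotransferase, encoded by Gatm) forms homoarginine and guanidinoacetate, the precursor of creatine. The wt group held wild-type mice and the AGAT-/- group held mice that lack AGAT, both without supplementation. The AGAT-/-hArg group held AGAT-/- mice that received homoarginine through osmotic mini pumps for 4 weeks. All mice were littermates, bred from heterozygous parents after several generations of backcrossing to C57BL/6J. Their age is not given in the sources used here. Libraries held between 365634 and 570492 reads. By their labels, all AGAT-/-hArg mice were sequenced on lane 2 and all others on lane 8, so that lane and supplementation cannot be told apart. Loss of AGAT itself is not measured by miRNA counts.

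A miRNA is cut from a hairpin precursor, whose left arm gives the 5p and right arm the 3p strand. The strand that is loaded onto Argonaute binds target mRNAs mainly through its seed, the bases near its 5′ end, while the partner strand is mostly degraded. In the heart, mir-1 and mir-133 are made from shared transcripts and act in muscle differentiation, conduction and growth control. The mir-208 and mir-499 precursors lie within myosin heavy chain genes and are known for their part in the choice between myosin isoforms and between fast and slow muscle gene programs, also under stress. For mir-1, mir-133 and mir-208 the 3p strand is usually the active strand, and for mir-499 it is the 5p strand.

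Mature sequences from RefSeq (GRCm38.p6) were matched by name for 7 of the 14 rows, and they are shown because the strand and the seed decide what each row measures. Each is written 5′ to 3′ with its seed, bases 2 to 8, in capitals. Those with the seeds of mir-499-5p and of the mir-208 3p strands come before the others.
mir-499-5p: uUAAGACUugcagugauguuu
mir-208a-3p: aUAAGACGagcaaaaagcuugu
mir-208b-3p: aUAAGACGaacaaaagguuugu
mir-208a-5p: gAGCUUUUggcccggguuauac
mir-208b-5p: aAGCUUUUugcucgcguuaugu
mir-499-3p: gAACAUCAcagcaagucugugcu
mir-1a-1-5p: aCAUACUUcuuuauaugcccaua
The mir-208a-3p and mir-208b-3p strands share their whole seed, and outside it they differ at 3 positions, G10A, A16G and C18U, counted from the 5′ end with the base of mir-208a-3p first. The seed of mir-499-5p shares 6 bases with theirs and differs at the last position, G8U, with the base of mir-208a-3p first. The mir-208a-5p and mir-208b-5p strands also share a seed. The mature strands named mir-1a-1-3p, mir-1a-2-5p, mir-1a-2-3p and both arms of mir-133a-1 and mir-133a-2 were not among those matched.

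The mature mir-499-5p lies at chr2:155622893-155622913 on the plus strand, within an intron of Myh7b (chr2:155611212-155634307, GENCODE M21 annotation of GRCm38). The mir-208a-5p strand lies at chr14:54949107-54949128 on the minus strand within an intron of Myh6, the gene of the adult ventricular myosin of mice, and its precursor is 26557 bases from that of mir-208b, which lies within an intron of Myh7. The mir-1a-1-5p strand lies at chr2:180389057-180389079 on the plus strand. The mir-1a-1 precursor overlaps no annotated gene and is 9254 bases from mir-133a-2. The other pair, mir-1a-2 and mir-133a-1, is 2504 bases apart, within an intron of the transcript Mir133a-1hg and, on the opposite strand, of Mib1. Gatm also lies on chromosome 2, 33.0 Mb from mir-499 and 57.8 Mb from mir-1a-1 and mir-133a-2. GRCm38 is also the build in the submitters' processing notes.

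Of the 14 rows, 8 held reads and 6 were at 0 in all 15 libraries. The rows at 0 were the 3p rows of mir-1a-1, mir-1a-2, mir-133a-1, mir-133a-2, mir-208a and mir-208b, so the strands that are usually active in these families have no level here. A library with 0 reads still allows up to 3 reads, which corresponds to between 5.00 and 8.35 CPM (read counts scaled to library size with TMM, which allows for differences in composition), for counting error only. The pattern was not limited to muscle miRNAs. Among the 918 precursors with both arms in the table, 450 had 1 arm at 0 in all libraries while the other held reads, and in 75 of these the other arm had more than 10 reads in every library, with the 3p arm at 0 in 29 and the 5p arm at 0 in 46. The counting of reads shared by several miRNAs is not given in the sources used here, so a row at 0 is reported as listed at 0 and not as a strand that the heart lacks, and the floor holds only if its reads were counted in that row. Only for mir-499 did both arms hold reads.

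By level, mir-499-5p led the members with a mean of 914.7 CPM over the 15 mice, rank 47 among the 1164 rows with reads. Whether the table holds every read that was assigned to a miRNA is not given in the sources used here. The authors tested mir-30b-5p and mir-30d-3p, but both rows are at 0 in all libraries here. The table may thus not be the one they tested, and levels, ranks and shares are relative to the rows as listed. The mir-133a-2-5p and mir-133a-1-5p rows followed with 481 and 479.5 CPM, then mir-208a-5p with 98.6, mir-499-3p with 84.2, mir-1a-1-5p with 73.5, mir-1a-2-5p with 19.9 and mir-208b-5p with 2.27 CPM. The mir-499-5p row had more reads than each mir-133a row in 15 of 15 libraries. This lead holds per row, since the mir-133a rows may be copies of a shared signal. They held 3289 and 3305 reads in all, against 6290 for mir-499-5p. The mir-133a rows had more reads than mir-208a-5p in 15 of 15 libraries, and so had mir-1a-1-5p than mir-1a-2-5p and mir-1a-2-5p than mir-208b-5p. Neighbours among mir-208a-5p, mir-499-3p and mir-1a-1-5p did not differ beyond their spread, since mir-208a-5p exceeded mir-499-3p in 7 of 15 libraries and mir-499-3p exceeded mir-1a-1-5p in 10 of 15. Levels of different miRNAs also carry the efficiency of library preparation for each sequence. Together the members took between 0.177% and 0.258% of the reads of a library, while the 3 most abundant rows of the table took between 71.5% and 73.7%.

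**Figure D1:**
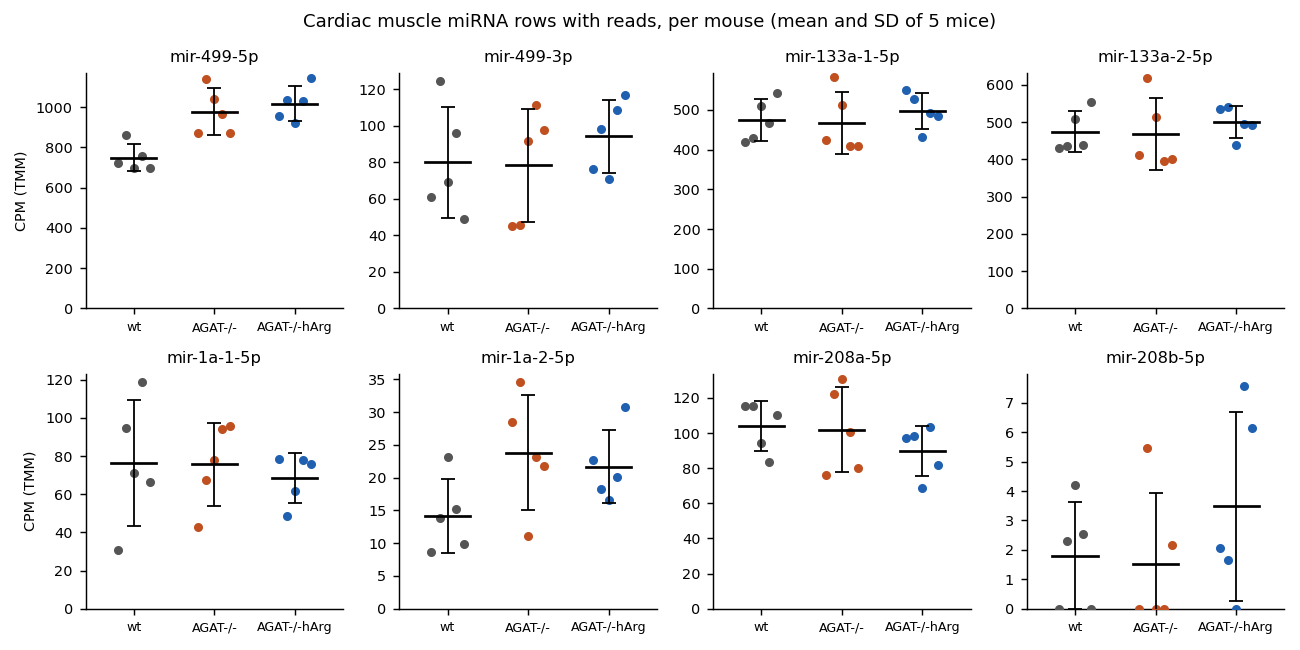
CPM after TMM scaling (vertical axes, from 0) of the 8 member rows with reads, by group, with 1 point per mouse and bars for the mean and SD of 5 mice. For mir-499-5p, the wt mice lie between 699 and 860 CPM, below the AGAT-/- mice (871 to 1139.7 CPM) and the AGAT-/-hArg mice (919.8 to 1145 CPM), while for the other 7 rows the groups overlap.

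The level of mir-499-5p, the strand with the myosin-linked seed shown above, was higher in AGAT-/- and AGAT-/-hArg mice than in wt mice. In the wt mice numbered 1 to 5 it was 724, 860, 699, 759 and 699 CPM, a mean of 748 ± 67.2 (SD, n = 5). In the AGAT-/- mice numbered 6 to 10 it was 871, 1139.7, 1041, 966 and 874 CPM, a mean of 978 ± 115 (SD, n = 5). In the AGAT-/-hArg mice numbered 11 to 15 it was 955, 1036, 919.8, 1032 and 1145 CPM, a mean of 1017 ± 87.1 (SD, n = 5). Every AGAT-/- and AGAT-/-hArg mouse was thus above every wt mouse, with wt mouse 2 close below AGAT-/- mouse 6, and the AGAT-/- and AGAT-/-hArg mice overlapped. These levels rest on 285 to 372 reads per wt mouse, 366 to 626 per AGAT-/- mouse and 389 to 621 per AGAT-/-hArg mouse. In bulk tissue, a change in the share of cardiomyocytes and a change in the level per cell cannot be told apart.

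Between AGAT-/- and wt mice, both on lane 8, mir-499-5p was 1.29-fold higher, with a log2 fold change of 0.36 (SE 0.10, 95% confidence interval 0.16 to 0.57). It missed the threshold in edgeR's quasi-likelihood test, with an FDR of 0.0647 over 562 miRNAs against a limit of 0.05, and was higher in 5 of 5 AGAT-/- mice than in any wt mouse. DESeq2 and limma-voom gave an FDR of 0.0104 and 0.0497, and 8 of the 9 alternatives with all mice passed, with FDRs between 0.0104 and 0.0497, while edgeR with size factors from DESeq2 gave 0.0510. Of the 8, 6 were edgeR fits with another filter, scaling or set of rows or libraries, with FDRs between 0.0213 and 0.0425. Without AGAT-/- mouse 6 or 10 the edgeR FDR was 0.0209 or 0.0299, and without the other mice it was up to 0.198. The call therefore depended on the tool, on filter, scaling and rows within edgeR, and on single mice, while the log2 fold change lay between 0.31 and 0.46 under all alternatives.

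Between AGAT-/-hArg and wt mice, mir-499-5p was 1.35-fold higher, with a log2 fold change of 0.43 (SE 0.10, 95% confidence interval 0.23 to 0.63) and an edgeR FDR of 0.0129 over 569 miRNAs, and it was higher in 5 of 5 AGAT-/-hArg mice than in any wt mouse. All 9 alternatives with all mice passed, with FDRs between 0.000123 and 0.0185. The edgeR FDR rose above the limit without wt mouse 3 (0.0501), wt mouse 5 (0.0651) or AGAT-/-hArg mouse 15 (0.0554). These groups differ in genotype, lane and supplementation, and within this comparison the parts of the 3 in the difference cannot be told apart. Between AGAT-/-hArg and AGAT-/- mice the log2 fold change was 0.06 (SE 0.10, 95% confidence interval -0.14 to 0.26) with an edgeR FDR of 0.949. Thus mir-499-5p was not called between these groups. They also lie on different lanes, so the interval covers lane and 4 weeks of homoarginine together and does not bound either alone. The comparisons share mice, so their values for mir-499-5p are not independent of each other.

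**Figure D2:**
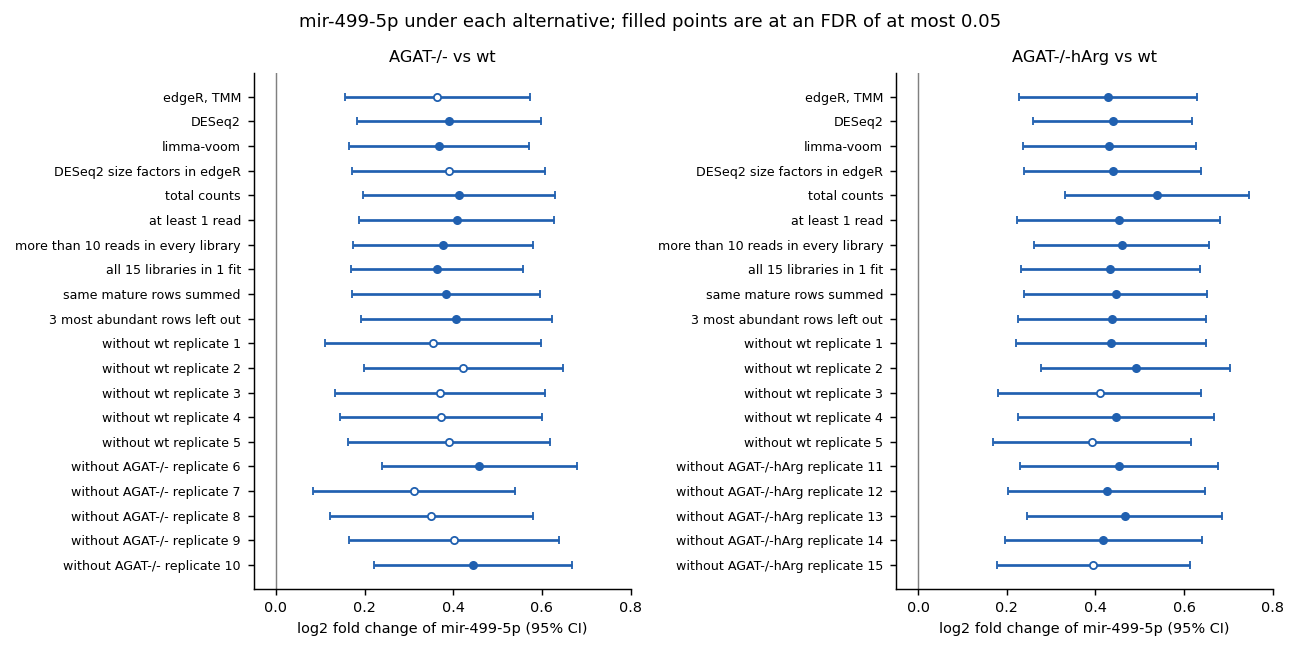
Log2 fold change of mir-499-5p (horizontal axes, with 95% confidence intervals) for AGAT-/- and for AGAT-/-hArg mice against wt mice under each alternative, named on the vertical axes, with filled points at an FDR of at most 0.05. The estimates stay between 0.31 and 0.46 on the left and between 0.39 and 0.54 on the right, while the points on the left are filled under 8 of the 9 alternatives with all mice, but neither for the edgeR fit of the text nor with size factors from DESeq2 in edgeR.

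Over the members as a whole, few calls were made. Between AGAT-/- and wt mice, 7 members had more than 10 summed reads and were tested, and 0 of 7 passed in edgeR at an FDR of at most 0.05, beside 12 of all 562 miRNAs tested (2.14%). At an unadjusted p under 0.05 there were 2 members (mir-499-5p and mir-1a-2-5p) and 60 miRNAs in all. DESeq2 and limma-voom each called 1 member, beside 13 and 15 of all 562 miRNAs. Groups did not overlap for 1 of 7 members and for 19 of 562 miRNAs (3.38%). In AGAT-/-hArg against wt mice, 1 of 8 members tested passed in edgeR, mir-499-5p, beside 17 of 569 miRNAs (2.99%), and groups did not overlap for 1 of 8 members and for 18 of 569 miRNAs (3.16%). Of the 17, 9 were higher and 8 lower, and with total counts in place of TMM 16 were higher and 8 lower. Leaving out single mice moved these counts to 3 higher and 7 lower without wt mouse 3 or AGAT-/-hArg mouse 15, to 3 higher and 9 lower without AGAT-/-hArg mouse 14, and to 2 higher and 9 lower without wt mouse 5. In AGAT-/-hArg against AGAT-/- mice, 0 of 8 members passed in edgeR, beside 4 of 580 miRNAs (0.69%). At an unadjusted p under 0.05 there were 0 members and 43 miRNAs in all. DESeq2 and limma-voom each called 0 members, beside 5 of 580 miRNAs each. Groups did not overlap for 0 of 8 members and for 14 of 580 miRNAs (2.41%). With so few members, these shares do not set them apart from the other miRNAs.

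The median log2 fold change of the 7 members tested in every comparison was -0.04 between AGAT-/- and wt mice, as it was over all miRNAs tested. For AGAT-/-hArg against wt mice it was 0.06, beside 0.01 over all miRNAs tested, and for AGAT-/-hArg against AGAT-/- mice it was 0.06, beside 0.01. Both mir-133a rows, reported below as uncertain copies of a shared signal, count in these medians. In both comparisons with wt mice the median was the value of mir-133a-2-5p. These medians leave out mir-208b-5p, which lay at the floor, a choice made after seeing the data; with it they were 0.14 and 0.08 in the comparisons of AGAT-/-hArg mice. Without TMM, on total counts alone, the median over all miRNAs tested between AGAT-/-hArg and wt mice moved from 0.01 to 0.12. Relative to that median, the log2 fold change of mir-499-5p was 0.41 with TMM and 0.42 with total counts.

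**Figure D3:**
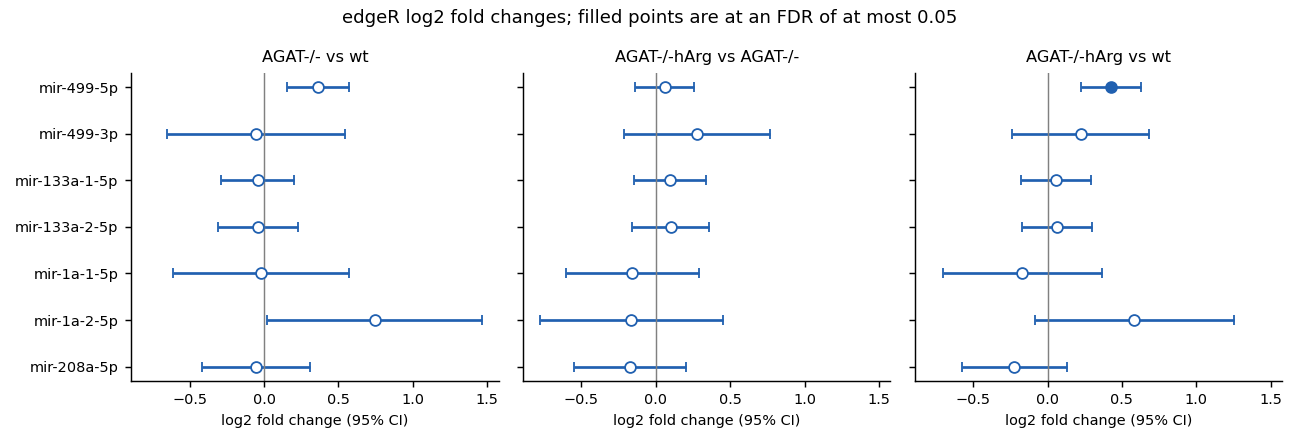
edgeR log2 fold changes (horizontal axes, with 95% confidence intervals) of the 7 member rows tested in every comparison, with 1 panel per comparison and filled points at an FDR of at most 0.05. The mir-499-5p row alone lies at 0.36 and 0.43 with an interval above 0.1 in both comparisons with wt mice, and most other intervals span 0.

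The partner strand of the same hairpin, mir-499-3p, did not show the difference of mir-499-5p. It held 19 to 59 reads per mouse, with means of 80.1 ± 30.4 CPM in wt, 78.3 ± 30.9 in AGAT-/- and 94.2 ± 19.9 CPM in AGAT-/-hArg mice (SD, n = 5 each). All groups overlapped, and the log2 fold change was -0.05 (SE 0.28, 95% confidence interval -0.65 to 0.54) between AGAT-/- and wt mice and 0.22 (SE 0.22, 95% confidence interval -0.24 to 0.68) between AGAT-/-hArg and wt mice. Both intervals include the values of mir-499-5p, so at this depth the strands cannot be said to differ in their response. Per library, mir-499-5p had a median of 9.96 reads for each read of mir-499-3p in wt, 11.2 in AGAT-/- and 10.4 in AGAT-/-hArg mice, a ratio chosen after the values were seen and not tested. The widest range was in AGAT-/- mice, from 8.61 to 24.6.

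The mir-133a rows, whose 3p strand is a known brake on cardiac growth, gave nearly the same counts for both copies on the 5p side. In every library mir-133a-1-5p and mir-133a-2-5p lay within 20 reads of each other, with totals of 3289 and 3305 reads, and neither copy was consistently ahead. Copies with the same mature strand cannot be told apart by their reads, so the 2 rows are reported as uncertain copies of a shared signal and not as separate evidence. For mir-133a-1-5p, the wt mice had 419, 430.2, 510.2, 468 and 542 CPM, the AGAT-/- mice 424, 583, 512, 409 and 409 CPM and the AGAT-/-hArg mice 549.7, 527, 433, 492 and 486 CPM. All 3 groups overlapped, with AGAT-/- mouse 7 the highest of all. The log2 fold change was -0.04 (SE 0.12, 95% confidence interval -0.29 to 0.20) between AGAT-/- and wt mice and 0.06 (SE 0.11, 95% confidence interval -0.18 to 0.29) between AGAT-/-hArg and wt mice, with edgeR FDRs of 0.969 and 0.919. The direction between AGAT-/- and wt mice turned to 0.0073 with total counts. For mir-133a-2-5p the group means were 474 ± 55.1, 468 ± 97.3 and 500.6 ± 41.8 CPM in wt, AGAT-/- and AGAT-/-hArg mice (SD, n = 5 each).

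The mir-1a rows, the 5p partners of the most studied muscle miRNA, were low. In wt mice mir-1a-1-5p was at 30.5, 94.8, 71.4, 119 and 66.3 CPM, in AGAT-/- mice at 42.9, 67.4, 77.9, 94.5 and 95.6 CPM and in AGAT-/-hArg mice at 78.5, 48.4, 61.5, 78.2 and 75.8 CPM. The groups overlapped fully, and wt mice spanned the range of the others. Within groups its log2 CPM had an SD of 0.52, above that of all 64 rows with over 10 reads per library and a mean level within a factor of 2 of its own (median 0.29). The log2 fold change was -0.02 (SE 0.28) between AGAT-/- and wt mice, turning to 0.04 with total counts, and -0.17 (SE 0.26) between AGAT-/-hArg and wt mice, with edgeR FDRs of 0.978 and 0.887.

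The mir-1a-2-5p row rested on 4 to 19 reads per mouse. It was at 8.72, 13.9, 23.1, 15.2 and 9.81 CPM in wt mice, at 28.6, 34.6, 11.1, 23.1 and 21.7 CPM in AGAT-/- mice and at 22.7, 18.3, 16.6, 20.2 and 30.7 CPM in AGAT-/-hArg mice. The groups overlapped through AGAT-/- mouse 8, which lay among the low wt mice, and through wt mouse 3. The log2 fold change between AGAT-/- and wt mice was 0.74 (SE 0.34, 95% confidence interval 0.02 to 1.47) and did not pass, with an edgeR FDR of 0.434. Against wt mice, the AGAT-/-hArg mice had 0.58 (SE 0.32, 95% confidence interval -0.08 to 1.25) with an edgeR FDR of 0.490. These differences rested on few reads and were not called at the threshold used.

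Of the mir-208 rows, mir-208a-5p, the partner strand from within Myh6, held 29 to 67 reads per mouse. Its means were 104 ± 14.4 CPM in wt, 102 ± 24.3 in AGAT-/- and 89.9 ± 14.4 CPM in AGAT-/-hArg mice (SD, n = 5 each), and all groups overlapped. The log2 fold change was -0.05 (SE 0.17) between AGAT-/- and wt mice and -0.22 (SE 0.17) between AGAT-/-hArg and wt mice, with edgeR FDRs of 0.972 and 0.688. The mir-208b-5p row, from within Myh7, the myosin gene of the fetal and stressed mouse ventricle, had reads in 9 of 15 libraries, with 4 reads in all over wt, 4 over AGAT-/- and 8 over AGAT-/-hArg mice. No library had more than 3 reads of it, which is the floor, and no fold change is given.

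Ratios of rows within a library do not depend on library size, and 4 of them were compared over the mice with exact two-sided permutation tests over the 252 splits of 10 mice, 12 tests in all with Benjamini-Hochberg adjustment. The ratio of mir-499-5p to the sum of the mir-1a and mir-133a 5p rows had a geometric mean of 0.722 in wt, 0.950 in AGAT-/- and 0.935 in AGAT-/-hArg mice. On the log2 scale the wt mice lay between -0.75 and -0.18, the AGAT-/- mice between -0.19 and 0.06 and the AGAT-/-hArg mice between -0.31 and 0.08, so the groups overlapped at their edges. The difference from wt mice was 0.40 for AGAT-/- mice (exact permutation p = 0.0159, adjusted p = 0.143) and 0.37 for AGAT-/-hArg mice (exact permutation p = 0.0238, adjusted p = 0.143). The smallest p these splits can give is 0.00794, which for 1 test alone adjusts to 0.0952 over the 12 tests, so no ratio could pass an adjusted limit of 0.05 by itself and the lack of a pass does not show that ratios were alike.

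For the other 3 ratios, the unadjusted exact permutation p values were 0.0794 or more, and all groups overlapped. Reads of mir-1a-2-5p per read of mir-1a-1-5p had a geometric mean of 0.205 in wt, 0.319 in AGAT-/- and 0.326 in AGAT-/-hArg mice. The mir-133a 5p rows had a geometric mean of 11.1 reads for each read of the mir-1a 5p rows in wt, 9.34 in AGAT-/- and 11.1 in AGAT-/-hArg mice. The ratio of the mir-133a copies stayed between 0.941 and 1.06 in every library.

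**Figure D4:**
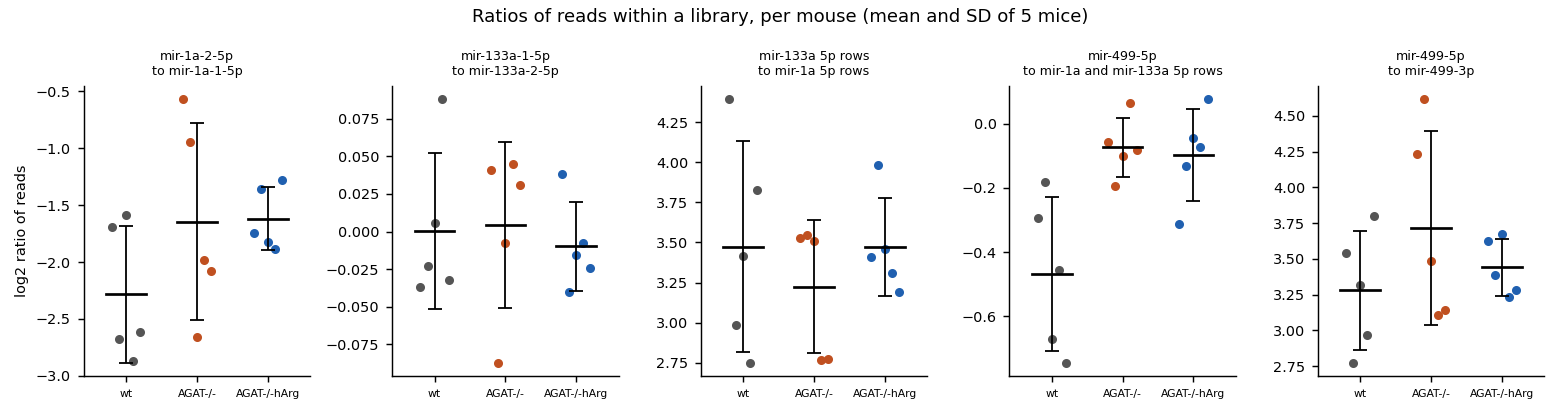
Log2 ratios of reads within a library (vertical axes) for the 4 ratios tested and for the arms of mir-499, by group, with 1 point per mouse and bars for the mean and SD of 5 mice. For mir-499-5p against the mir-1a and mir-133a rows, the wt mean is at -0.47 and the AGAT-/- and AGAT-/-hArg means are at -0.07 and -0.10, with overlapping mice.

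As parts of the members' own reads, mir-499-5p made up between 34.4% and 41.4% in wt, between 43.6% and 46.0% in AGAT-/- and between 41.2% and 47.0% in AGAT-/-hArg libraries. The mir-133a-1-5p row made up between 20.7% and 26.7% in wt, between 19.5% and 22.3% in AGAT-/- and between 19.9% and 23.7% in AGAT-/-hArg libraries. These shares describe the same reads as the ratios and were not tested.

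Within groups, the log2 CPM of mir-499-5p had an SD of 0.14, against a median of 0.16 for the 37 rows with more than 10 reads in every library and a mean level within a factor of 2 of its own, of which 10 had a lower SD. Over the 15 libraries, with group means removed, the rows most like it were let-7j-5p (Pearson r = 0.65), mir-1960-5p (0.64) and mir-677-5p (0.62), which had an r of 0.44, 0.37 and 0.38 with group means kept. For mir-133a-1-5p they were its copy mir-133a-2-5p (0.98), let-7c-2-5p (0.87) and mir-31-5p (0.82), and mir-133a-2-5p had the same neighbours. With group means kept, the r of mir-31-5p was 0.40 with mir-133a-1-5p and 0.37 with mir-133a-2-5p. For mir-208a-5p they were mir-133a-2-5p (0.62), mir-329-5p (0.59) and mir-499-5p (0.58, or 0.07 with group means kept). For mir-1a-1-5p they were mir-378a-3p (0.75), mir-322-3p (0.67, but 0.26 without the 2 libraries where mir-1a-1-5p lay farthest from its median) and mir-499-3p (0.63), and for mir-499-3p they were mir-99a-3p (0.73), mir-21a-3p (0.63) and mir-1a-1-5p (0.63). Each was picked as the highest of 176 candidates that share libraries and depth, so these r values are a description without a test. The partner arms mir-499-5p and mir-499-3p had an r of 0.35.

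Among other miRNAs linked to muscle and hypertrophy, 27 of a list of 34 precursors were in the table and gave 54 rows, of which 28 were at 0 in all libraries. Both arms of mir-22, an abundant heart miRNA, were among those at 0, and for the rows of the list, too, a 0 does not show that a strand was missing from the tissue. Of the 23 rows tested between AGAT-/- and wt mice, 0 passed in edgeR, with a median log2 fold change of -0.04, as over all miRNAs tested. The lowest p there belonged to mir-24-2-5p, with 18270.3 ± 877 CPM (SD, n = 5) in AGAT-/- mice, 15219 ± 1823 CPM (SD, n = 5) in wt mice and an edgeR FDR of 0.143, and to mir-29a-3p and mir-21a-5p, with log2 fold changes of -0.34 and -0.33 and FDRs of 0.289 and 0.311. Between AGAT-/-hArg and wt mice 1 of 23 was higher and 0 lower, and between AGAT-/-hArg and AGAT-/- mice again 1 was higher and 0 lower, with medians of 0.03 and 0.01 against 0.01 and 0.01 over all miRNAs tested. The row that passed was mir-378b-3p, at 4272 ± 205 CPM (SD, n = 5) in AGAT-/-hArg mice, 1063 ± 54.7 CPM in AGAT-/- mice and 1080.1 ± 62.8 CPM in wt mice, a difference for which lane and supplementation cannot be told apart. Its family has near-identical copies, whose reads may be shared between rows. The most abundant row of the list, mir-378a-3p, was at 429347 ± 15958 CPM (SD, n = 5) in AGAT-/-hArg mice against 475876 ± 36091 CPM (SD, n = 5) in wt mice, with an edgeR FDR of 0.0711.

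Markers of the cells that LV tissue can hold were summed per library. The rows of the cardiomyocyte list, which are the members themselves, summed to between 1789 and 2079 CPM in wt, between 1900.1 and 2616 CPM in AGAT-/- and between 2007 and 2436 CPM in AGAT-/-hArg mice. No marker of skeletal muscle (mir-206, mir-133b) or neurons (mir-124, mir-9) was matched. Red blood cell markers summed to between 6518 and 7921 CPM in wt, between 6723 and 8184 CPM in AGAT-/- and between 6592 and 7879 CPM in AGAT-/-hArg mice, led by mir-486a-5p, while 5 of their 10 rows, both arms of mir-451a among them, were at 0. Leukocyte markers summed to between 2554 and 3202, between 2606 and 3119 and between 2835 and 3556 CPM in the same order, led by mir-155-5p, with mir-223-3p and mir-150-5p at 0 and 4 of 10 rows at 0 in all. Endothelial markers summed to between 12.6 and 29.4, between 8.40 and 28.6 and between 12.4 and 25.2 CPM, led by mir-126a-3p.

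Smooth muscle and fibroblast markers summed to between 9571 and 11960 CPM in wt, between 9953 and 13917 CPM in AGAT-/- and between 10117 and 16970 CPM in AGAT-/-hArg mice, led by mir-145a-3p, with 4 of 8 rows, mir-143-3p among them, at 0. The only hepatocyte row with reads, mir-122-3p, was at 5.00 CPM or less in every library. Of the marker rows tested outside the members, 0 passed in edgeR in any of the 3 comparisons, and all sums overlapped between groups. With defining strands at 0 in most lists, the cell makeup of the libraries cannot be read from these sums, and its part in the level of mir-499-5p was not tested.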

How the data were processed

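MiRNA libraries of LV tissue from 15 mice were analysed, grouped by their labels. The authors mapped reads to the murine miRNAs of miRBase with the CLC Genomics Workbench and deposited whole-number counts per mature miRNA, without normalization. The miRBase release and the handling of reads that match several miRNAs are not given in the sources used here. Members and lists were chosen with earlier results of these data known. Pairs of groups were compared with edgeR 4.0.16 (R 4.3.3, TMM, glmQLFit and glmQLFTest) for rows with more than 10 summed reads, with Benjamini-Hochberg adjustment over all rows tested and an FDR limit of 0.05. The fits were tested on simulated data. Levels are TMM-scaled CPM over all 15 libraries, and log2 CPM for likeness uses a prior count of 1. Ratios use 0.5 added reads and exact permutation tests (scipy 1.17.1). Chi-square of the 30 pairs of libraries from a shared group, divided by its degrees of freedom, lay between 2.61 and 17.5, so none were duplicates. Named miRNAs are all members, the 3 rows most like each member with more than 10 reads in every library, and the listed muscle and cell type miRNAs, with those of lowest p and most reads as examples; mir-22 and marker rows at 0 were named after their values were seen. Alternatives were DESeq2 1.42.0, limma-voom (limma 3.58.1), edgeR with total counts or with size factors from DESeq2, a filter of 1 read or of above 10 reads per library, a joint fit of the 15 libraries, copies of a mature strand summed, the top 3 rows removed, other added reads for ratios, and each mouse left out.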

Additional observations from a re-analysis of the deposited data

Results flagged for a closer look

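For the 8 member rows with reads and the 5 ratios, each group of 5 mice was searched for a mouse set apart from the others. In 0 of 39 groups did the gap between the highest or lowest mouse and its nearest neighbour exceed 0.71 of the range of the group.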

How the results depend on the processing

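For mir-499-5p between AGAT-/- and wt mice, the edgeR FDR of 0.0647 fell to 0.05 or less under 8 alternatives, each of which called 1 member in place of 0. Calls over all miRNAs were 12 of 562 in the edgeR fit of the text. Of 562, DESeq2 called 13, limma-voom 15, total counts 17 and the fit of all 15 libraries 15. With at least 1 read 18 of 1094 were called, and with more than 10 reads in every library 8 of 179. Summed rows of the same mature miRNA gave 15 of 511, and leaving out the 3 most abundant rows gave 16 of 559. The log2 fold changes of mir-499-5p were 0.39 with DESeq2, 0.37 with limma-voom, 0.41 with total counts, 0.41 with at least 1 read, 0.38 with more than 10 reads in every library, 0.36 with all 15 libraries in 1 fit, 0.38 with rows of the same mature miRNA summed and 0.41 without the 3 most abundant rows. Leaving out each mouse gave 0.31 to 0.46 and 0 to 1 members called, beside 8 to 17 miRNAs in all. Between AGAT-/-hArg and wt mice it gave 0.39 to 0.49 and 0 to 1 members called, beside 10 to 20 miRNAs in all. The cause of these changes was not tested.

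Log2 fold changes near 0 turned direction between AGAT-/- and wt mice without passing the limit. For mir-1a-1-5p they were 0.065 with limma-voom, 0.0022 with DESeq2's size factors, 0.040 with total counts, 0.027 with at least 1 read and 0.027 without the 3 most abundant rows. For mir-133a-1-5p and mir-133a-2-5p they were 0.0073 and 0.0095 with total counts, 0.00050 and 0.0034 with at least 1 read, and 0.00072 and 0.0039 without the 3 most abundant rows. Leaving out each mouse gave -0.23 to 0.19 for mir-1a-1-5p, -0.13 to 0.060 for mir-133a-1-5p, -0.15 to 0.073 for mir-133a-2-5p, -0.14 to 0.088 for mir-208a-5p and -0.20 to 0.16 for mir-499-3p. It gave -0.33 to 0.011 for mir-1a-2-5p between AGAT-/-hArg and AGAT-/- mice, and -0.36 to 0.049 for mir-1a-1-5p between AGAT-/-hArg and wt mice.

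Of the log2 ratios, mir-133a to mir-1a rows between AGAT-/-hArg and wt mice turned to 0.025 with 5 added reads and ranged from -0.19 to 0.23 when each mouse was left out. The ratio of mir-499-5p to the mir-1a and mir-133a rows between AGAT-/-hArg and AGAT-/- mice turned from -0.02 to 0.0026 when mir-133a-1-5p alone stood for both copies, an alternative chosen after seeing the data, and ranged from -0.066 to 0.031 when each mouse was left out. The mir-133a copies ranged from -0.0062 to 0.027 between AGAT-/- and wt mice and from -0.022 to 0.012 between AGAT-/-hArg and wt mice, and mir-1a-2-5p to mir-1a-1-5p ranged from -0.22 to 0.30 between AGAT-/-hArg and AGAT-/- mice. The cause was not tested.

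Over all miRNAs, counts of calls moved from 17 to 28 between AGAT-/-hArg and wt mice with at least 1 read, and from 4 to 8 or 2 between AGAT-/-hArg and AGAT-/- mice with at least 1 read or more than 10 reads in every library. When each mouse was left out, they lay between 10 and 20 for AGAT-/-hArg against wt mice, with 10 without wt mouse 3 or AGAT-/-hArg mouse 15 and 11 without wt mouse 5. They lay between 8 and 17 for AGAT-/- against wt mice and between 3 and 6 for AGAT-/-hArg against AGAT-/- mice. Rows with few reads per mouse, such as mir-1a-2-5p and mir-208b-5p, are limited by counting error.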
